A study of Mus musculus with 4 samples.

Results

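The surface ectoderm cells described here are mouse embryonic epithelial cells that carry messenger RNA of Trp63, the gene of the transcription factor p63. They were chosen by raw counts of unique molecular identifiers (UMIs). A cell first had to show 1000 or more genes and no more than 10% of its UMIs in mitochondrial genes, and then had to hold at least 2 Trp63 UMIs, at least 1 Epcam UMI, no Pax1 or Nkx2-6 UMI and at most 2 Neurod1 UMIs. These cuts take in epithelial cells and leave out pharyngeal pouch cells and neuroblasts, and 641 of 14985 cells that passed the cell filter met them (of 19567 barcodes). The cells came from single-cell RNA libraries of 2 genotypes at E10.5 (34 to 36 somites), with 2 libraries for each, from Swiss-Webster mice per the labels. Both genotypes carried Pax2-Cre and 1 copy of the reporter, Rosa26-GFPf/+, and for the controls no other allele is named. The conditional knockouts (cKO) were also Tbx2f/f;Tbx3f/f, that is, homozygous for floxed alleles of 2 related T-box repressor genes. The otic vesicle (the rudiment of the inner ear) with its ganglion and directly adjoining tissue was dissected, pooled and sorted for GFP, which marks cells with a history of Pax2-Cre activity. All cells described are therefore GFP-sorted cells of that lineage and not the whole head ectoderm. The protocol names 3 control and 2 cKO embryos and does not say how they were divided among libraries, so that p-values measure the spread between libraries, which may be technical.

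The embryonic surface ectoderm is the single-layered sheet that covers the embryo, and it gives rise to the epidermis and, in the head, to the sensory placodes. p63 is required for this sheet to become a stratified epidermis, and before stratification the cells make the simple-epithelium keratins Krt8 and Krt18. The otic placode arises from this same ectoderm beside the hindbrain and folds in to form the otic vesicle, so that the epidermis-fated ectoderm and the otic epithelium are close relatives and neighbours.

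The given markers of surface ectoderm were far higher in the members than in the other cells, and Krt15 was low. Summed over Trp63, Krt15, Wnt6, Perp, Krt19 and Foxi2, the members held 973 and 1097 counts per 1000000 UMIs of the same cells (CPM) in control libraries 1 and 2, and 1051 and 915 in cKO libraries 1 and 2. All other cells that passed the filter held between 66 and 86.9. Trp63 itself was part of the rule. Wnt6, a WNT ligand of surface ectoderm, stood at 372 and 456 CPM in the controls and 393 and 348 in the cKO, after scaling by TMM (edgeR's trimmed mean of M values, the scale of all single-gene CPM below unless stated). Perp, a p63 target of desmosomes, stood at 182 and 243 in the controls and 209 and 157 in the cKO, and Foxi2, a forkhead factor of cranial ectoderm, at 121 and 107 in the controls and 136 and 149 in the cKO. Krt15, a basal keratin, was low in every library, at 16.3 and 20.1 CPM in the controls and 11.9 and 12 in the cKO.

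Genes outside the rule also set the members apart. Among the highest ratios of members to the other cells of their own library, taken as the lowest of the 4 libraries and per total UMIs, were, after Trp63, those of Sostdc1, a secreted WNT and BMP antagonist, at 38, and Hspb1, a small heat shock protein, at 29.6. Others were the microRNA host gene Mir205hg at 26.8, the chemokine gene Cxcl14 at 24.7, the ligand gene Wnt4 at 21.1 and the AP-2 factor Tfap2b at 20.5. The stratifin gene Sfn (14.6) and the hyaluronan link protein gene Hapln1 (15.4) were also among the leading 20. These ratios come from the cells the rule chose, and are given with no test.

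Markers of several other cell types were low or absent, while those of neural crest or glia were near the level of other cells in the cKO. The pharyngeal endoderm list summed to between 0 and 2.85 CPM, with Pax1 and Nkx2-6 at 0 in every library, as the rule set them. Endothelial markers summed to at most 0.943 CPM. Leukocyte markers summed to 3.54, 18.5, 1.9 and 1.11 CPM with Ptprc at 0. Otic markers summed to 80.4 and 43.3 CPM in the control members and 32.9 and 51.9 in the cKO members, against 559, 641, 181 and 235 in all other cells of the same libraries. Markers of placodal neurons summed to 100 and 268 CPM in the controls and 91.4 and 96.1 in the cKO, and mesenchymal markers to 77.1, 28.3, 72.2 and 90.8. Sums for neural crest or glia lay between 46.8 and 70.7 with Foxd3 at 0, for melanoblasts between 9.82 and 13.9 with Dct at 0, for neural tube between 3.55 and 13.3, for epibranchial neurons between 5.77 and 43.3, and for erythroid cells between 0 and 2.0. In all other cells of the same libraries, mesenchymal markers summed to 113, 118, 239 and 150 CPM. Those of neural crest or glia summed there to 95.5, 109, 47.2 and 47.3, and those of melanoblasts to 24.8, 22.8, 26.0 and 31.8. Markers of the epibranchial placode, which arises from this ectoderm, summed to 246 and 190 in control members and 237 and 263 in cKO members. In all other cells of the same libraries they summed to 424, 403, 377 and 406. Foxi2, also a given marker of surface ectoderm, held 124, 108, 132 and 146 CPM of the member sums. The neuronal sum thus stood highest in control 2, the library with the fewest members. Periderm markers, of the flat outer layer, summed to between 331 and 410 CPM, with Krt6a, Krt4 and Ly6d at 0 in every library. Most of that sum was Sfn, at 236, 248, 226 and 194 CPM in the 4 libraries.

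The libraries held 173 and 44 members in controls 1 and 2 and 231 and 193 in cKO 1 and 2, with 4242052, 1132628, 6313205 and 4506070 UMIs in all. A member held a median of 20452 to 24652 UMIs, depending on the library. The median share of mitochondrial UMIs in members was 3.18% and 3.63% in the controls and 1.59% and 1.83% in the cKO, and this gap moved with genotype. Sex differed between libraries: members with Y-linked and no Xist UMIs numbered 87, 17, 122 and 175, and members with Xist and no Y-linked UMIs 68, 23, 94 and 0, so that cKO 2 stood apart, with no cell of Xist alone, and the controls and cKO 1 held both kinds. No barcode was shared between members of different libraries. Just inside the threshold, cells with exactly 2 Trp63 UMIs numbered 32, 8, 45 and 58, with a Wnt6 level (per total UMIs) of 439, 363, 321 and 288 CPM. Just outside it, cells with exactly 1 numbered 36, 19, 61 and 75, with a Wnt6 level of 223, 287, 265 and 144 CPM.

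Members made up a larger share of the cKO libraries than of the controls, but with 2 libraries a genotype no difference in share could reach a p of 0.05. The share of passing cells was 4.3% in control 1 (95% exact binomial interval 3.69% to 4.97%) and 1.17% in control 2 (0.852% to 1.57%). It was 6.91% in cKO 1 (6.07% to 7.82%) and 5.0% in cKO 2 (4.33% to 5.73%). Both cKO shares were above both control shares, with means of 2.74% ± 2.21 (SD, n = 2) and 5.95% ± 1.35 (SD, n = 2). The difference of 3.22 percentage points had an exact two-sided permutation p of 0.333, which is the smallest that 2 libraries against 2 can give. With each cell thinned to 10000 UMIs before the rule, the shares were 2.75%, 0.763%, 3.76% and 3.14%. There the intervals of control 1 (2.25% to 3.31%) and cKO 2 (2.59% to 3.76%) overlapped. With 3 Trp63 UMIs as the threshold, the shares were 3.505%, 0.958%, 5.56% and 3.4965%, so that cKO 2 was not above control 1. The intervals cover counting error only, and dissection and sorting can set such a share, which was not tested.

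**Figure D1:**
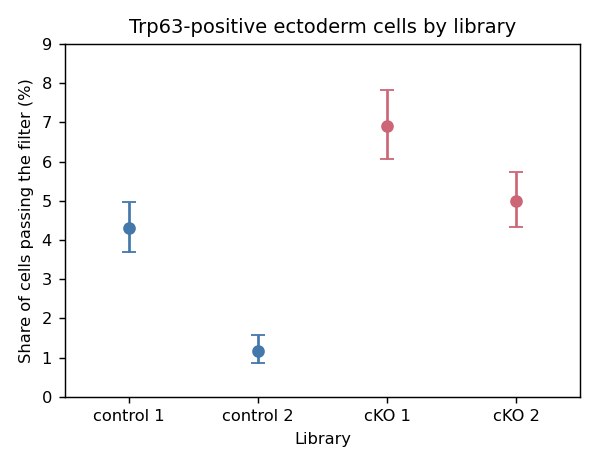
Share of cells passing the filter that met the ectoderm rule, in percent, for each library, with bars for 95% exact binomial intervals (counting error only). The control libraries sit at 4.3% and 1.17%, and the cKO libraries at 6.91% and 5.0%.

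The members fell into 7 subsets when clustered without the genes called between genotypes, sex-linked genes or mitochondrial genes. The names below are the genes that lead each subset against the other members, and a subset's leading genes and size are descriptions with no test. Subset 1 (191 cells) was led by Tagln, an actin-binding protein gene, with Krt19, the neurotrophin receptor gene Ntrk2 and the tight junction gene Cldn11. Subsets 2 (124 cells, Ube2c and Cenpf), 3 (110 cells, Ung and Cdc6) and 5 (71 cells, histone genes such as Hist1h1b) were led by genes of mitosis, of the entry into DNA replication and of histone supply. Cycling genes thus led 3 of the 7 subsets.

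Subset 4 (80 cells) was led by the activin subunit gene Inhba, the CDK inhibitor genes Cdkn2b and Cdkn2a, and the factors Msx1 and Runx1. Its Bmp4 level was 347 CPM (here and for all subsets per total UMIs), against 120.4 in subset 1 and 38.5 in subset 3. Its Cdkn1a level, a CDK inhibitor of the p53 response, was 286 CPM against 43.9 in subset 1. Wnt5a and Wnt9b, ligand genes, stood at 105 and 59 CPM. Mki67, a proliferation marker, stood at 6.98 CPM, near its level in subsets 1 (4.73) and 6 (5.42) and far below that in subset 2 (304). This subset held 29 cells of control 1, 30 of cKO 1 and 21 of cKO 2, and 0 of the 44 members of control 2, which allows a share of up to 6.82%.

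Subset 6 (33 cells) was led by Nmnat2, the fibrillar collagen gene Col11a1 and Hapln1, which stood at 1158 CPM. It had the highest Wnt6 level of the 7 subsets (744 CPM) and held 67.7 CPM of Wnt10a, 501 of Sfn and 108 of Piezo2, a mechanosensitive channel gene. Foxi2 was lowest there, at 27.1 CPM against 199 in subset 4. Subset 6 held 8, 7, 6 and 12 cells of the 4 libraries.

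Subset 7 (32 cells) carried genes of the otic vesicle, namely Pax2 (70.6 CPM), Oc90, an otoconial protein gene (62.9), Sox10 (49.4) and Lmx1a (39.1), with less Trp63 (71.9 CPM, against 228 in subset 1) and less Wnt6 (114). Its cells had a median of 38073 UMIs, and 22 of the 32 were among the highest doublet scores (Scrublet) of their library. This subset held 75 of the 92 Tbx2 UMIs of all members (81.5%), 34 of the 55 Tbx3 UMIs (61.8%), 98 of 125 for Oc90 and 132 of 255 for Sox2. It held 14, 1, 6 and 11 cells of the 4 libraries. Whether these droplets hold 1 cell or more was not tested.

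The split depends on its resolution. A lower resolution (0.3) gave 3 subsets and a higher one (1) gave 10, of which 1 was a group of 22 cells led by Ifitm1, Nkx2-3, Emx2 and Sox2, with Fgf8 at 88 CPM and cells in the cKO libraries only (14 and 8). The 0 cells of control 1 and control 2 allow shares of up to 1.73% and 6.82%. With the called genes kept in the clustering there were again 7 subsets, with an adjusted Rand index of 0.444 to the first split.

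**Figure D2:**
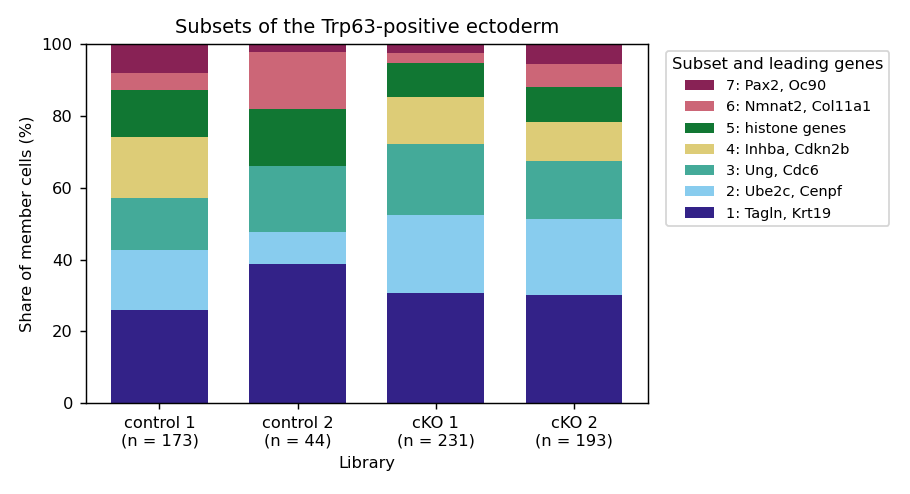
Share of member cells in each of 7 subsets (stacked, in percent) for each library, with the number of members under each bar. Subset 4 (Inhba, Cdkn2b) has no cell in control 2, and the subsets of cycling genes (2, 3 and 5) appear in all 4 libraries.

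Tbx2 (chr11:85832551-85841948; coordinates here are those of GENCODE vM21 on mm10) and Tbx3 (chr5:119670669-119684724), the genes targeted in the cKO, gave few UMIs in the ectoderm members. Tbx2 gave 22, 12, 29 and 29 UMIs in control 1, control 2, cKO 1 and cKO 2 (log2 fold change -0.23, SE 0.40, adjusted p = 0.794, not passed). Tbx3 gave 36, 2, 7 and 10 UMIs and was too low to be tested. The share of members with a Tbx2 UMI was 7.51%, 4.55%, 5.19% and 4.15% in the 4 libraries, and in leukocytes, used here to show the level that free RNA gives, 4.26%, 11.9%, 0% and 1.85%. For Tbx3 the shares were 8.67%, 4.55%, 2.6% and 2.59% in members and 0%, 4.76%, 7.27% and 0% in leukocytes (198 cells in all, with medians of 37492 to 51477 UMIs). The member shares were thus above those of leukocytes in some libraries and below them in others, but leukocytes held more UMIs per cell. With cells thinned to equal depth (shallower cells left out), the Tbx2 shares were 6.43%, 2.27%, 0.452% and 1.64% in members. In leukocytes they were 2.17%, 7.32%, 0% and 0%. For Tbx3 the thinned shares were 6.43%, 0%, 1.36% and 1.09% in members and 0%, 4.88%, 0% and 0% in leukocytes. Thinned shares of members were thus below those of leukocytes in control 2 only. Which exons were floxed is not stated in the labels, and 3′ counts may lie outside the deleted part, so these values check neither the deletion nor the labels.

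Between genotypes, the ectoderm members of the cKO had more RNA of Ldha, Pgk1, Aldoa and 5 more of 13 glycolysis and hypoxia genes, of the metallothionein genes Mt1 and Mt2, of the keratin genes Krt18, Krt7 and Krt19 (3 of 8), and of Fgf8, Cxcl12 and Crabp2. They had less of the factors Sox11, Irx5, Tfap2b and Bcl11a, of the receptors Fgfr2 and Robo2 and of the integrin gene Itga6. UMIs were summed over members within each library, and the 2 cKO sums were tested against the 2 control sums with edgeR's quasi-likelihood test and Benjamini-Hochberg adjustment, which is the adjusted p throughout. Of 11492 genes tested, 385 (3.35%) passed an adjusted p of 0.05, with 208 higher (1.81%) and 177 lower (1.54%) in the cKO. Of the 385, 61 rose and 59 fell by over 2-fold.

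The median log2 fold change of all genes tested was -0.02, and the library values of 51.8% of them did not overlap between genotypes. The calls rested on single libraries of both genotypes: many of the 385 were lost without cKO 1, without cKO 2 or without control 1, and few without control 2. The counts are given in the last section. Each such fit leaves a lone library in its genotype. Because sex differed between libraries, the test was repeated on cells with Y-linked and no Xist UMIs, a choice made after seeing the data. There 64 genes were called, 62 of them among the 385 and in the same direction, and 22 of 56 named genes that passed with all members and could be tested there passed again. Under that restriction Pgk1, Ldha, Aldoa, Eno1, Gapdh, Slc16a3, Krt18, Mt1, Mt2, Robo2 and Bcl11a kept their calls, while Fgf8 (1.81, adjusted p = 0.0968), Cxcl12 (1.28, adjusted p = 0.163), Tagln (2.56, adjusted p = 0.0939), Sox11 (-0.56, adjusted p = 0.0914), Fgfr2 (-0.94, adjusted p = 0.112), Tfap2b (-0.73, adjusted p = 0.105) and Irx5 (-0.79, adjusted p = 0.148) were among those that did not pass. The parts of sex and of the mitochondrial share in the other results were not tested.

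Glycolysis and hypoxia-inducible genes were the list with the most rises. Of 13 such genes tested, 8 rose in the cKO and none fell (1.81% and 1.54% over all genes tested), with a median log2 fold change of 0.71. Both cKO libraries lay above both control libraries for 12 of the 13. Over all genes tested, 51.8% did not overlap in 1 direction or the other. The rises ran along the pathway from glucose entry to lactate: the glucose transporter gene Slc2a1, the phosphofructokinase gene Pfkl, Aldoa, Gapdh, Pgk1 and Eno1, and Ldha, which makes lactate. Bnip3, a mitophagy receptor gene that is a classical target of hypoxia-inducible factors, rose as well. The lactate exporter gene Slc16a3, which the list did not hold, was among the 12 genes with the highest fold change. Several of these genes, Gapdh and Ldha among them, have processed pseudogene copies, so that their counts may be split.

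Ldha stood at 579 and 353 CPM in the controls and 1121 and 999 in the cKO (log2 fold change 1.16, SE 0.17, adjusted p = 0.0047). Pgk1, the phosphoglycerate kinase gene, stood at 349 and 275 in the controls and 645 and 589 in the cKO (log2 fold change 0.97, SE 0.12, adjusted p = 0.00127). Aldoa, the aldolase gene, stood at 414 and 308 in the controls and 803 and 705 in the cKO (log2 fold change 1.04, SE 0.13, adjusted p = 0.00142). In all 3 both cKO libraries lay well above both controls, and control 2 was the lower control. Gapdh rose from 2223 and 2269 to 3205 and 3427 CPM (log2 fold change 0.56, SE 0.07, adjusted p = 0.00125) and Eno1 from 533 and 625 to 926 and 847 (log2 fold change 0.62, SE 0.10, adjusted p = 0.00681). Bnip3 rose from 67.3 and 40.3 to 138 and 108 CPM (1.08, adjusted p = 0.0106) and Slc16a3 from 19.8 and 13.1 to 53.7 and 52.3 (log2 fold change 1.56, SE 0.18, adjusted p = 0.00116), with the Slc16a3 values of the cKO pair close together. Pfkl stood at 90.3 and 71.8 CPM in the controls and 142 and 132 in the cKO (0.71, adjusted p = 0.0112) and Slc2a1 at 71.7 and 56.9 in the controls and 113 and 90.3 in the cKO (0.61, adjusted p = 0.0458). Both calls were lost without cKO 1 (Pfkl 0.67, adjusted p = 0.0775; Slc2a1 0.45, adjusted p = 0.356) and in cells with Y-linked and no Xist UMIs, as was that of Bnip3 (0.93, adjusted p = 0.19).

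Members of the list that did not pass were Pdk1, a brake on pyruvate oxidation (29.2 and 21.9 CPM in the controls and 52.1 and 38.7 in the cKO, 0.76, adjusted p = 0.0618), Vegfa (8.96 and 4.38 in the controls and 13.3 and 13.1 in the cKO, 0.76, adjusted p = 0.161, and 1.59 on the log2 scale without control 1), Hk2 (28.5 and 30.7 in the controls and 42.6 and 31.9 in the cKO), Ero1l (23.4 and 17.5 in the controls and 24.7 and 24.7 in the cKO) and Slc2a3. Slc2a3, a neuronal-type glucose transporter, was the 1 gene of the 13 whose groups overlapped, at 189 and 313 CPM in the controls and 304 and 239 in the cKO. Its log2 value was 0.16, with -0.20 without control 1 and -0.03 without cKO 1, and without control 2 it passed (0.53, adjusted p = 0.0294).

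**Figure D3:**
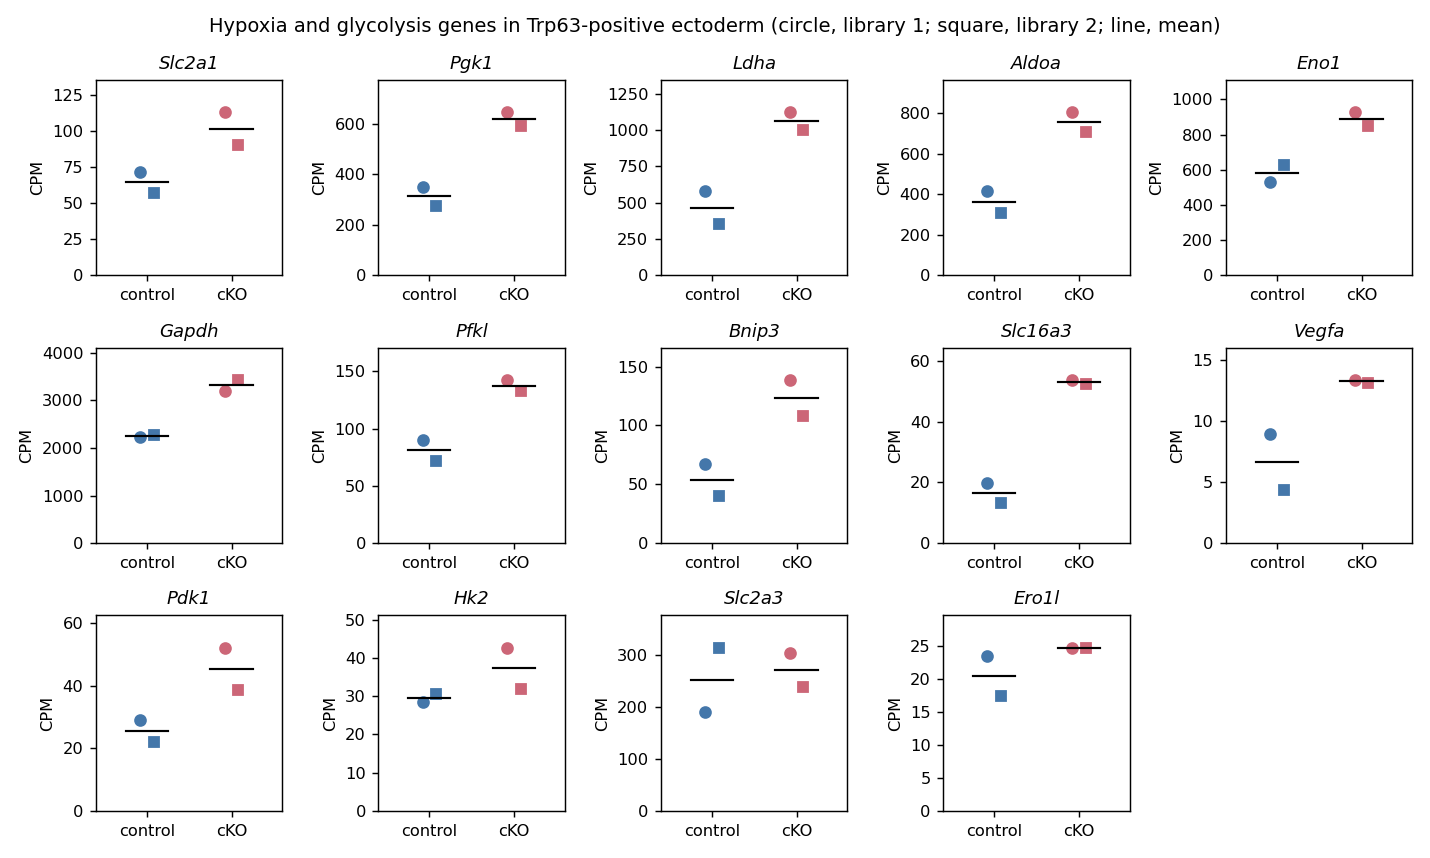
Level (CPM, each axis from 0) of the 13 glycolysis and hypoxia genes and Slc16a3 in the ectoderm members of each library, with circles for library 1, squares for library 2 and a line for the mean. Both cKO libraries lie above both controls in each panel except that of Slc2a3.

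Hypoxia-inducible factors bind a short core, ACGTG, and the stretch before the start site of each risen gene was searched for it. The sequences below are the parts of 4 of these promoters that hold the core, shown because their genes rose together; they are from RefSeq on GRCm38.p6, 5′ to 3′ along the gene's strand, with capitals for ACGTG or its reverse complement CACGT, which overlap where 6 capitals stand in a row. They lie at chrX:106186939-106187003 (plus strand), chr7:46845740-46845803 (plus), chr7:126799346-126799410 (minus) and chr7:138909579-138909643 (minus).
Pgk1: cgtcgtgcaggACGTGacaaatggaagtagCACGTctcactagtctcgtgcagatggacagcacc
Ldha: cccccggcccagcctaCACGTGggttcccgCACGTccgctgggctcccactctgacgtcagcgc
Aldoa: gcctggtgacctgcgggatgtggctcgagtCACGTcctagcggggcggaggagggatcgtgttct
Bnip3: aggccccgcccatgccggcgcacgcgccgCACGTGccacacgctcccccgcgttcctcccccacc
Of the 13 promoters of the 8 risen genes, 6 hold the core on either strand within the 250 bases before the start, in 5 genes (the fifth is Slc2a1); 2 of the 6 are overlapping windows of Aldoa that hold the same match. By the same search 21.9% of the promoters of tested genes and 16.6% of all 32851 promoters in the table hold it. No match was found in the window for Eno1, Gapdh or Pfkl. A match is a description of letters and not a binding site.

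Metallothionein genes rose too. Mt1 and Mt2, neighbouring genes of zinc-binding proteins, went from 244 and 257 CPM in the controls to 736 and 611 in the cKO (log2 fold change 1.43, SE 0.11, adjusted p = 5.68e-05) and from 159.9 and 182 to 378 and 304 (log2 fold change 1.01, SE 0.13, adjusted p = 0.00154). The libraries of the 2 genotypes stood well apart for both genes. Among stress genes, Hspb1 rose from 121 and 130.5 to 280.1 and 202 CPM (log2 fold change 0.95, SE 0.15, adjusted p = 0.00674) and the small heat shock gene Cryab from 9.88 and 14.9 to 34 and 28.8 (1.5, adjusted p = 0.00619), a call that was lost without control 1 (1.09, adjusted p = 0.0805). Of 9 immediate-early and heat shock genes of the dissociation response that were tested, 1 rose (Ier3, 2.99 and 3.5 to 14.2 and 11.8 CPM, 2.06, adjusted p = 0.00729) and none fell, with a median of 0.18 (3.35% of all genes tested were called). The Ier3 call was lost without control 1 (1.89, adjusted p = 0.0877) and without cKO 1 (1.9, adjusted p = 0.0667).

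Of 8 keratin genes tested, 3 rose and none fell (1.81% and 1.54% over all genes tested), with a median log2 fold change of 0.58. All 3 are keratins of simple and transitional epithelia. Krt18 (chr15:102028180-102032027) rose from 367 and 310 CPM in the controls to 709.9 and 624 in the cKO (log2 fold change 0.97, SE 0.11, adjusted p = 7.21e-04). Its partner Krt8 (chr15:101996698-102004482) stood at 407 and 378 CPM in the controls and 609 and 477 in the cKO, with no overlap, and did not pass (log2 fold change 0.47, SE 0.12, adjusted p = 0.0555). Krt7, on the same chromosome, rose from 131 and 187 to 319 and 241 CPM (log2 fold change 0.86, SE 0.17, adjusted p = 0.0193) and Krt19 from 49.6 and 49 to 159 and 77.4 (log2 fold change 1.27, SE 0.28, adjusted p = 0.0302), with cKO 1 far above cKO 2 for Krt19. The basal keratin genes Krt5 (4.6 and 2.63 CPM in the controls and 7.32 and 5.89 in the cKO) and Krt14 (9.88 and 7.88 in the controls and 7.0 and 7.92 in the cKO) were low in every library. The call of Krt7 was lost without control 1 (0.58, adjusted p = 0.064) and without cKO 1 (0.64, adjusted p = 0.0999), and that of Krt19 without control 1 (1.29, adjusted p = 0.0895), without cKO 1 (0.65, adjusted p = 0.175), with DESeq2 (1.28, adjusted p = 0.115) and with 1 Trp63 UMI as the threshold (1.05, adjusted p = 0.0847).

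Of 20 genes of desmosomes and junctions, 1 rose and none fell (beside 3.35% called of all genes tested; median 0.09). It was Cldn3, a tight junction gene, at 78.8 and 69.2 CPM in the controls and 125 and 116 in the cKO (log2 fold change 0.68, SE 0.12, adjusted p = 0.011), whose call was lost without cKO 1 (0.63, adjusted p = 0.108) and with 1 Trp63 UMI as the threshold (0.29, adjusted p = 0.219). Perp, the cadherin gene Cdh1 and Cldn7 had log2 fold changes of -0.18, -0.17 and -0.04 and did not pass. Of 15 genes of the basement membrane and hemidesmosomes, 2 fell and none rose (median -0.31, beside 1.54% and 1.81% of all genes tested). Itga6, the integrin alpha subunit that binds laminin, stood at 125 and 154 CPM in the controls and 95.5 and 91.3 in the cKO (log2 fold change -0.54, SE 0.12, adjusted p = 0.0325). Col17a1, a transmembrane collagen of hemidesmosomes, gave 10, 8, 0 and 0 UMIs in the 4 libraries (adjusted p = 0.0233), and with a floor of 3 counts over the cKO libraries it was at least 12.1-fold lower there. Both calls were lost without cKO 1 (adjusted p of 0.149 for Itga6 and 0.141 for Col17a1) and without cKO 2 (0.162 and 0.0876).

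Of secreted signals, Fgf8 had the highest fold change. Fgf8 (chr19:45736798-45742915), an FGF ligand of pharyngeal ectoderm and placodes, stood at 6.43 and 1.75 CPM in the controls and 48.3 and 29.7 in the cKO (log2 fold change 2.88, SE 0.36, adjusted p = 0.00161). Both control libraries were below both cKO libraries, and the log2 value was 4.48 without control 1. The share of members with an Fgf8 UMI was 7.51%, 4.55%, 22.9% and 18.7% in controls 1 and 2 and cKO 1 and 2, and 5.26%, 2.27%, 12.7% and 15.3% after each cell was thinned to 10000 UMIs (2, 0, 10 and 10 shallower cells left out). In leukocytes it was 2.13%, 0%, 1.82% and 1.85%. Over the subsets, Fgf8 stood at 52 CPM in subset 4, 45.9 in subset 2, 39.6 in subset 3, 9.47 in subset 1 and 0 in subset 6. In subset 3 its level by library was 0 and 6.02 CPM in the controls and 69.2 and 24.2 in the cKO, and in subset 2 it was 13.2 and 0 CPM in the controls and 65.1 and 53.4 in the cKO. In subset 4, with no cell of control 2, it was 7.86 CPM in control 1 and 76.5 and 67.2 in the cKO. In subset 5 it was 11.7 and 0 CPM in the controls and 42.8 and 18.3 in the cKO, and in subset 1 it was 3.36 and 0 against 16.5 and 7.0. The libraries overlapped in subset 7, at 2.1 and 10.7 CPM in the controls and 2.24 and 31.4 in the cKO. Fgf8 RNA thus stood higher in the cKO in subsets led by cycling genes and in subsets 1 and 4.

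Among the other 11 FGF pathway genes tested, Fgfr2, the receptor gene, fell from 114 and 151 to 73.1 and 70.6 CPM (log2 fold change -0.83, SE 0.14, adjusted p = 0.00906) and none rose. The list's median was 0.29, and 3.35% of all genes tested were called. The feedback targets Spry1 (30.6 and 26.3 CPM in the controls and 36.5 and 35.1 in the cKO), Dusp6 (25 and 18.4 in the controls and 28.3 and 31.9 in the cKO) and Etv5 (10.8 and 7.88 in the controls and 4.23 and 7.25 in the cKO) did not pass, with adjusted p of 0.351, 0.295 and 0.198. Fgf3, a further ligand gene, gave 0, 0, 10 and 14 UMIs, too few to be tested. With a floor of 3 counts over the control libraries it was at least 3.97-fold higher in the cKO. Those UMIs came from 4 cells of cKO 1 and 5 of cKO 2. The share of members with an Fgf3 UMI was 0%, 0%, 1.73% and 2.59% in the 4 libraries, and that of leukocytes 2.13%, 0%, 0% and 3.7%. In cKO 2 the member share was thus below that of leukocytes.

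Cxcl12, a chemokine gene that guides migrating cells, stood at 64.1 and 23.6 CPM in the controls and 172 and 150.1 in the cKO (log2 fold change 1.66, SE 0.24, adjusted p = 0.00469). The controls differed by more than 2-fold between themselves and stayed below both cKO libraries. The log2 value was 2.77 without control 1, and with DESeq2 the gene did not pass (1.88, adjusted p = 0.0633). The share of members with a Cxcl12 UMI was 48.6%, 31.8%, 78.4% and 66.3% (29.8%, 22.7%, 64.3% and 52.5% thinned), against 0%, 0%, 3.64% and 1.85% in leukocytes. It was high in subset 4 (296 CPM) and low in subset 6 (6.77). Of the other 6 tested genes of its list (endothelin, ectodysplasin, chemokine and growth factor ligands and receptors) none passed, and the median of the 7 was 0.46.

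Among retinoic acid genes, Crabp2, which carries retinoic acid to its receptors, rose from 335 and 329 CPM in the controls to 468 and 494 in the cKO (log2 fold change 0.53, SE 0.09, adjusted p = 0.0104), with closely matched libraries in each genotype. Its call was lost without cKO 2 (0.50, adjusted p = 0.0568). The degrading enzyme gene Cyp26a1 (7.12 and 14 CPM in the controls and 21.5 and 15.6 in the cKO, 1.08, adjusted p = 0.0743) and the synthesis gene Aldh1a3 (17.9 and 5.25 in the controls and 5.7 and 6.34 in the cKO, -1.25, adjusted p = 0.0905) did not pass.

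Of 16 BMP genes, 1 rose and 1 fell (median -0.28, beside 1.81% and 1.54% of all genes tested). Id3, a direct target of BMP signals that blocks bHLH factors, rose from 376 and 324 to 481 and 509 CPM (0.49, adjusted p = 0.0233), and the receptor gene Bmpr1a fell from 77.2 and 88.5 to 56 and 57.7 (-0.51, adjusted p = 0.0468). Id1 (299 and 240 CPM in the controls and 241 and 300.2 in the cKO) and Bmp4 (147 and 70.9 in the controls and 84.3 and 94.4 in the cKO) overlapped between genotypes. Id3 lost its call without cKO 1 (0.53, adjusted p = 0.0762) and without cKO 2 (0.45, adjusted p = 0.112), and Bmpr1a without control 2, cKO 1 or cKO 2 (adjusted p of 0.0598, 0.314 and 0.234) and with RLE scaling (-0.50, adjusted p = 0.0528).

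Of 12 Notch genes, the effector gene Hes1 rose from 116 and 111 to 173 and 147 CPM (0.49, adjusted p = 0.0429) and Hes6 from 57.5 and 48.2 to 77.8 and 98.7 (0.69, adjusted p = 0.0303). None fell (median 0.48, beside 1.81% risen and 1.54% fallen of all genes tested). Hes1 lost its call without control 1 (0.53, adjusted p = 0.0833) and without cKO 1 (0.36, adjusted p = 0.363), and Hes6 without cKO 2 (0.53, adjusted p = 0.27). None of 17 WNT genes passed with edgeR (median -0.14, 3 with an unadjusted p under 0.05). With limma-trend 0 passed, with DESeq2 0 of the 3 that had an adjusted p, and with edgeR and no filter on low counts 3 did. The ligand genes Wnt6 (-0.15) and Wnt4 (-0.03) had log2 fold changes near 0, and Wnt3 stood at 22.5 and 28 CPM in the controls and 12.9 and 16.5 in the cKO (-0.73, adjusted p = 0.0852).

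Of 21 epidermal transcription factor genes tested, 1 fell and none rose, with a median of -0.34, and 11 of the 21 had both cKO libraries below both controls. Of all genes tested, 3.35% passed and 51.8% did not overlap in 1 direction or the other. The gene that fell was Tfap2b, at 266 and 343 CPM in the controls and 191 and 182 in the cKO (log2 fold change -0.69, SE 0.12, adjusted p = 0.0127). Its relative Tfap2a stood at 147 and 138 in the controls and 111 and 106 in the cKO (-0.39, adjusted p = 0.0642) and Gata3 at 37 and 56.1 in the controls and 28.8 and 19.2 in the cKO (-0.83, adjusted p = 0.0798). Trp63, which set the members, stood at 208 and 213 CPM in the controls and 171 and 190.2 in the cKO.

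Of 16 preplacodal and epibranchial genes, 2 rose and 3 fell (median 0.20, beside 1.81% and 1.54% of all genes tested). Sox11, a SoxC factor, fell from 1343 and 1456 to 959 and 823 CPM (log2 fold change -0.65, SE 0.09, adjusted p = 0.00387), the Iroquois gene Irx5 from 110.3 and 175 to 65.7 and 64.5 (log2 fold change -1.05, SE 0.18, adjusted p = 0.00967), and Six4, a preplacodal homeobox gene, from 44.4 and 44.7 to 29.8 and 26.3 (-0.66, adjusted p = 0.0458). Sox2, a progenitor factor, stood at 7.58 and 7.88 CPM in the controls and 22.1 and 17.4 in the cKO (log2 fold change 1.38, SE 0.25, adjusted p = 0.0135), and without subsets 4 and 7 its log2 value was 3.76. Neurog1, a proneural gene of the otic ganglion, gave 0, 0, 49 and 34 UMIs (adjusted p = 0.00252), at least 13.7-fold higher in the cKO with a floor of 3 counts over the control libraries. Those UMIs came from 6 and 5 cells, and the share of members with one (0%, 0%, 2.6% and 2.59%) was not above that of leukocytes in cKO 1 (2.13%, 0%, 5.45% and 0%). Sox2 did not pass without control 1 (1.34, adjusted p = 0.112) or without cKO 1 (1.18, adjusted p = 0.149), and Six4 did not pass without cKO 1, cKO 2 or control 1 (adjusted p of 0.178, 0.326 and 0.149).

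**Figure D4:**
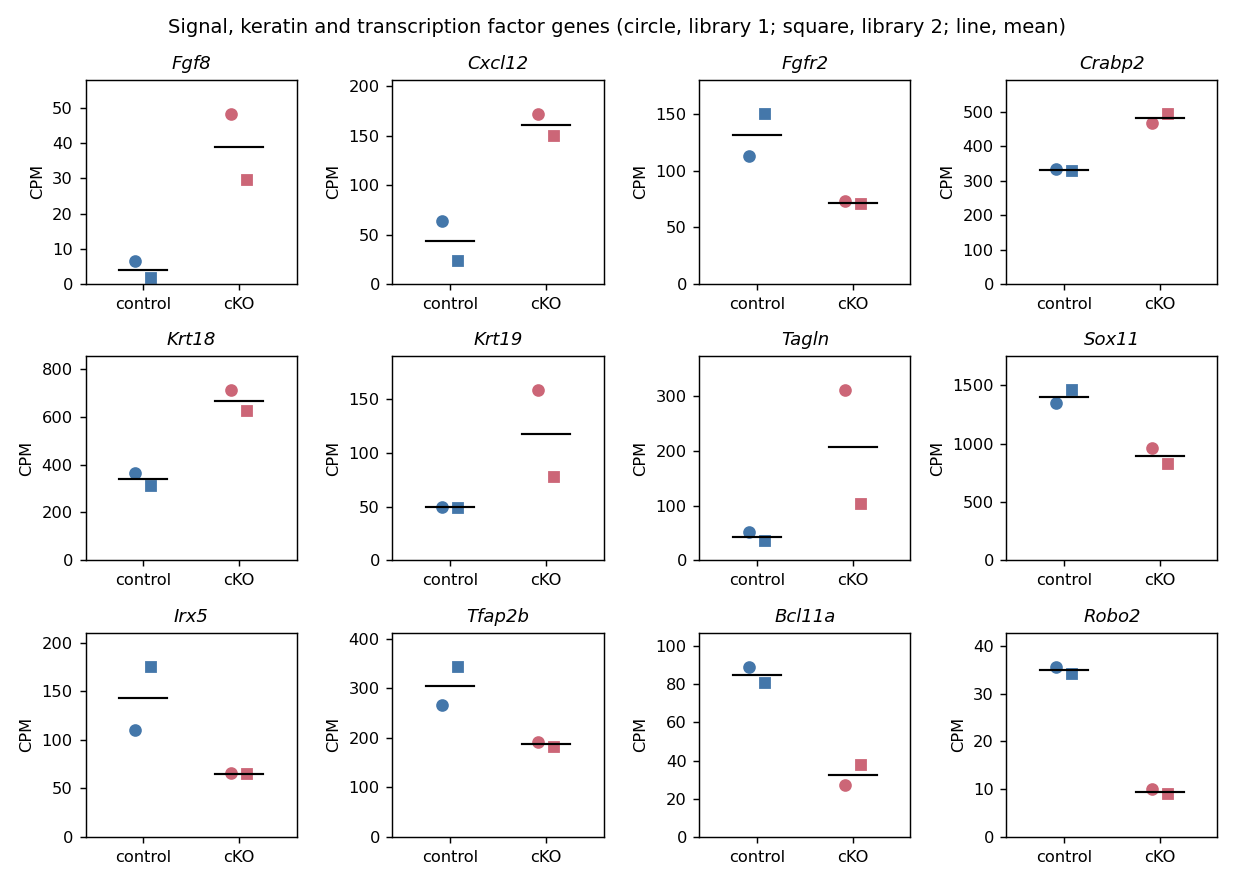
Level (CPM, each axis from 0) of 12 genes in the ectoderm members of each library, with circles for library 1, squares for library 2 and a line for the mean. Both cKO libraries lie above both controls for Fgf8, Cxcl12, Crabp2, Krt18, Krt19 and Tagln, and below them for Fgfr2, Sox11, Irx5, Tfap2b, Bcl11a and Robo2.

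Several of the largest changes lay outside these lists. Tagln rose from 51.9 and 35 to 311 and 103 CPM (log2 fold change 2.16, SE 0.42, adjusted p = 0.018), most of it in cKO 1, and its log2 value was 1.17 without cKO 1 and 2.75 without cKO 2. With DESeq2 it did not pass (2.26, adjusted p = 0.0586). The share of members with a Tagln UMI was 24.9%, 36.4%, 50.2% and 35.8%, so that control 2 and cKO 2 had like shares although their levels differed. In subset 1, where it is highest, its level was 119.8 and 18.1 CPM in the controls and 755 and 281 in the cKO. At the higher resolution (1) the Tagln-led subset was a group of 46 cells, with 2 and 1 in the controls and 27 and 16 in the cKO, so that its cells were mostly of the cKO. The Tagln level in that group was 959 and 44.2 CPM in the controls and 1372 and 897 in the cKO, so that control 1 lay between the cKO libraries. How far the values of subset 1 follow from the number of such cells was not tested. The proteoglycan gene Dcn rose from 8.96 and 4.38 to 30.8 and 21.3 CPM (1.74 on the log2 scale), Cldn11 from 16.3 and 12.3 to 63.3 and 32.4 (1.67), and Asprv1, a skin protease gene, from 6.89 and 17.5 to 31.6 and 32.4 (1.74). Smoc1, a secreted BMP modulator gene, rose from 9.42 and 4.38 to 26.4 and 20.6 (1.53), Rbm45, an RNA-binding protein gene, from 10.8 and 16.6 to 33.7 and 34.9 (1.47), and Rian, an imprinted noncoding RNA, from 9.42 and 7.01 to 26.5 and 22.2 (1.47). Their adjusted p-values were 0.00942, 0.0163, 0.0106, 0.0125, 0.00506 and 0.00681. Without control 1 Asprv1 (0.87, adjusted p = 0.13) and Rbm45 (1.04, adjusted p = 0.0636) did not pass and the log2 values of Dcn and Smoc1 were 2.59 and 2.43; without cKO 1 Dcn (1.47, adjusted p = 0.0533), Smoc1 (1.36, adjusted p = 0.0832) and Rian (1.34, adjusted p = 0.0537) did not pass.

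Of the falls, Robo2, a receptor for Slit guidance cues, went from 35.6 and 34.2 to 9.93 and 9.06 CPM (log2 fold change -1.88, SE 0.19, adjusted p = 3.55e-04) and Bcl11a, a zinc finger factor, from 89.2 and 80.6 to 27.2 and 37.6 (log2 fold change -1.43, SE 0.16, adjusted p = 9.41e-04). Both pairs of groups were far apart. Bcl11a was highest in subset 4 (128 CPM, against 57.1 in subset 1), where its level by library was 208 CPM in control 1 and 83.8 and 98.2 in the cKO (it has no cell of control 2). Piezo2 fell from 17.5 and 29.8 to 3.91 and 9.51 CPM (-1.73, adjusted p = 0.0305), a call lost without cKO 1 (-1.18, adjusted p = 0.149), and its log2 value was -2.46 without cKO 2. Piezo2 was led by subset 6 (108 CPM, at most 12.1 in the other subsets). The noncoding RNA Bc1 (-1.69 on the log2 scale, adjusted p = 9.52e-04) and the microRNA host gene Mir100hg (-1.4, adjusted p = 0.00619) also fell, as did Sfi1, a centrosome gene (-2.16, adjusted p = 0.0101), and the unnamed loci B930036N10Rik (-1.66, adjusted p = 0.0125) and AC149090.1 (-1.4, adjusted p = 0.00154). Mir100hg did not pass without control 1 (-0.76, adjusted p = 0.0701), and the log2 value of Sfi1 was -2.87 without cKO 2. Tsix, antisense to Xist, fell (-1.97, adjusted p = 0.018) beside the unequal numbers of Xist-positive members given above (whether the counting used strand is not given in the sources used here), and did not pass without control 1 (-2.0, adjusted p = 0.0549).

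Ubiquitin genes changed in ectoderm and in otic epithelium. Ubb, a polyubiquitin gene, rose from 206 and 212 to 1783 and 1806 CPM (log2 fold change 3.1, SE 0.08, adjusted p = 3.61e-09), while Gm8797, a ubiquitin-like locus, fell from 1783 and 1702 to 547 and 558 (log2 fold change -1.66, SE 0.08, adjusted p = 7.94e-07). Rps27a rose slightly, from 4973 and 5025 to 6048 and 6015 (0.27, adjusted p = 0.0236), and did not pass without cKO 1 (0.27, adjusted p = 0.257) or without cKO 2 (0.28, adjusted p = 0.182). These genes share near-identical ubiquitin repeats, so the split of reads among them is uncertain. In otic epithelium the log2 fold changes were 3.2 for Ubb and -1.61 for Gm8797, and the differences between the 2 classes, -0.10 (SE 0.08) and 0.01 (SE 0.09), did not pass (adjusted p of 0.696 and 1.0). The mitochondrial gene mt-Nd3 fell from 375 and 524 to 157 and 180.2 CPM (log2 fold change -1.4, SE 0.15, adjusted p = 4.45e-04), and had a log2 fold change of -1.31 in otic epithelium, beside the lower mitochondrial share of the cKO libraries given above.

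Oc90 and 2 neuronal genes were lower in the cKO members. Oc90 stood at 26 and 2.63 CPM in the controls and 0.163 and 1.81 in the cKO (log2 fold change -4.39, SE 0.78, adjusted p = 0.0125), with most of it in control 1, and its log2 value ran from -3.29 without cKO 1 to -6.53 without cKO 2. With limma-trend on means of scaled cells it did not pass (-0.92, adjusted p = 0.226). Subset 7 held 98 of its 125 UMIs, and the otic marker list as a whole overlapped between genotypes. Elavl4, a neuronal RNA-binding protein gene, stood at 7.81 and 25.4 CPM in the controls and 0.976 and 0.906 in the cKO (-3.77, adjusted p = 0.00946) and Dcx, a microtubule protein gene of young neurons, at 10.8 and 14 in the controls and 4.56 and 4.3 in the cKO (-1.39, adjusted p = 0.0302). The log2 value of Elavl4 was -4.7 without control 1 and -3.0 without control 2, and in members with at most 1 otic marker UMI it did not pass (-3.19, adjusted p = 0.0529). The part that RNA of other cells has in these values was not tested. Among members with at most 1 otic marker UMI, 526 genes were called in all, 355 of them among the 385.

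Of 18 genes of G2 and M phase 1 fell, Mki67, from 175 and 167 to 117 and 101 CPM (-0.65, adjusted p = 0.0102), while Top2a (342 and 233 in the controls and 231 and 231 in the cKO) and Cdk1 (125 and 125 in the controls and 129 and 130.2 in the cKO) did not pass (median -0.04; 3.35% of all genes tested were called). The Mki67 call was lost without cKO 2 (-0.55, adjusted p = 0.0799). With edgeR none of 18 S phase genes passed (median 0.09, 2 with an unadjusted p under 0.05), and none of 10 G1 cyclin and CDK inhibitor genes (median 0.23, 4), with Cdkn1a at 52.6 and 14 CPM in the controls and 65.3 and 120.5 in the cKO (1.16, adjusted p = 0.0974). Nor did edgeR call any of 12 p53 target genes (median -0.07, 3 with an unadjusted p under 0.05), 8 periderm genes (median 0.05, 2), 7 Hox genes (median 0.43, 3), 2 T-box genes (median 0.00, 0) or 5 sex-linked genes (median 0.28, 0). Limma-trend called 0 genes of these 7 lists. DESeq2 called 0 of the 12 S phase, 6 G1, 4 p53 target, 3 periderm, 1 Hox, 0 T-box and 1 sex-linked genes to which it gave an adjusted p. With edgeR and no filter on low counts, the genes called among all listed were 1 for S phase, 2 for G1, 1 for p53 targets, 1 for periderm, 2 for Hox, 1 for T-box and 2 for sex-linked genes.

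The genotype response of the ectoderm was then set against that of the otic epithelium of the same libraries, 4846 cells with at least 5 UMIs of Sox10, Lmx1a, Hmx2 and Hmx3 together, an Epcam UMI and no Trp63 UMI. On the log2 scale, the rises of Krt18, Ldha, Aldoa and Pgk1 were larger in ectoderm. Those of Cxcl12, Mt1 and Mt2 were larger in otic epithelium on that scale. In an edgeR quasi-likelihood test of the difference between responses, with library as a block, 351 of 14444 genes (2.43%) passed, 205 with a higher log2 response in ectoderm (1.42%) and 146 with a lower one (1.01%). The count was 623 without control 1, 583 without control 2, 249 without cKO 1 and 202 with 1 Trp63 UMI as the threshold. The ectoderm sum of control 2 rests on 44 cells.

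In otic epithelium Ldha changed by 0.29 on the log2 scale and in ectoderm by 1.16 (difference 0.92, SE 0.09, adjusted p = 5.40e-06). For Aldoa the values were 0.30 and 1.04 (difference 0.78, SE 0.09, adjusted p = 3.02e-05), and for Pgk1 0.45 and 0.97 (difference 0.55, SE 0.09, adjusted p = 9.65e-04). Pfkl (difference 0.57, SE 0.14, adjusted p = 0.0327) and Eno1 (difference 0.29, SE 0.06, adjusted p = 0.0169) differed in the same direction, but not without cKO 2 (0.46, adjusted p = 0.124; 0.29, adjusted p = 0.179), and Eno1 not without cKO 1 (0.27, adjusted p = 0.389). Gapdh rose in both, with 0.58 in otic epithelium (adjusted p = 4.90e-04; difference 0.02, SE 0.06, adjusted p = 0.935, not passed). For Slc2a1, Bnip3 and Slc16a3 the difference did not pass either (adjusted p of 0.748, 0.331 and 0.0782).

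Krt18 changed by 0.15 in otic epithelium (difference 0.83, SE 0.11, adjusted p = 2.13e-04) and Krt8 by -0.31 (difference 0.80, SE 0.12, adjusted p = 5.83e-04), so that the Krt8 value was negative in otic epithelium (adjusted p = 0.0162) and positive in ectoderm. Krt19 (difference 0.83, SE 0.21, adjusted p = 0.0457) and Cldn3 (difference 0.62, SE 0.15, adjusted p = 0.0308) differed in the same way, and neither passed without cKO 1 (0.38, adjusted p = 0.688; 0.41, adjusted p = 0.36). Id3 changed by -0.62 in otic epithelium (difference 1.16, SE 0.07, adjusted p = 1.73e-08), Hspb1 by -0.59 (difference 1.53, SE 0.18, adjusted p = 4.66e-05), Dcn by -1.22 (difference 2.77, SE 0.38, adjusted p = 2.51e-04) and Cldn11 by -0.91 (difference 2.5, SE 0.34, adjusted p = 1.96e-04). For these 4 genes the otic value was negative and the ectoderm value positive. Sox2 had a log2 fold change of 0.09 in otic epithelium (difference 1.41, SE 0.24, adjusted p = 0.00179), and the difference did not pass without control 1 (1.15, adjusted p = 0.123). The log2 difference of Dcn was 4.21 without control 1.

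Genes whose response was lower in ectoderm included Mt2, which rose by 3.73 on the log2 scale in otic epithelium (difference -2.68, SE 0.20, adjusted p = 2.58e-07), and Mt1, which rose there by 2.66 (difference -1.21, SE 0.11, adjusted p = 1.53e-06). Their otic levels per total UMIs were 1.23 and 1.03 CPM in the controls and 12.3 and 14.8 in the cKO for Mt2, and 6.35 and 7.54 and 41.5 and 36.7 for Mt1. Both genes thus stood far higher in ectoderm than in otic epithelium, in controls and cKO alike. Cxcl12 rose by 3.29 in otic epithelium (difference -1.59, SE 0.24, adjusted p = 5.23e-04), a difference that did not pass without control 1 (-0.40, adjusted p = 0.629). Sox11 (difference -0.54, SE 0.06, adjusted p = 3.98e-05), Irx5 (difference -0.93, SE 0.15, adjusted p = 8.69e-04) and Bcl11a (difference -1.82, SE 0.32, adjusted p = 0.00219) fell in ectoderm while their otic values were -0.07, -0.07 and 0.26. The Bcl11a difference was -0.95 without control 1 and -2.52 without control 2, and did not pass with 1 Trp63 UMI as the threshold (-1.68, adjusted p = 0.0626). For Fgf8, Fgfr2, Tagln and Robo2 the difference between the 2 epithelia did not pass, with otic values of 1.92, -0.55, 0.68 and -1.16 and adjusted p of 0.392, 0.377, 0.284 and 0.348.

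Among the genes with the largest differences, several had a large value in otic epithelium. Wnt4 had a log2 fold change of -2.5 in otic epithelium and -0.03 in ectoderm (difference 2.43, SE 0.15, adjusted p = 1.73e-08), from 9.66 and 14.6 CPM per total UMIs in the control otic cells to 2.05 and 1.8 in the cKO otic cells. The zinc finger genes Gata2 (3.95, adjusted p = 9.38e-04) and Zfp703 (2.34, adjusted p = 6.91e-05) and the homeobox gene Otx1 (2.63, adjusted p = 9.56e-04) also had a higher response in ectoderm, with otic log2 values of -2.6, -2.34 and -3.67. Lower responses in ectoderm belonged to Exph5 (-3.18, adjusted p = 1.12e-04), Plagl1 (-2.31, adjusted p = 2.49e-06), Ebf1 (-2.14, adjusted p = 0.0164), the secreted WNT modulator gene Sfrp2 (-2.04, adjusted p = 7.70e-04) and the cystine transporter gene Slc7a11 (-1.87, adjusted p = 2.77e-04), with otic values of 2.7, 2.31, 1.58, 2.68 and 2.11. Without control 1 the differences were 3.04 for Gata2, 3.27 for Otx1 and -3.35 for Ebf1, and that of Sfrp2 did not pass (-0.33, adjusted p = 0.922). Without control 2 that of Ebf1 did not pass (-0.90, adjusted p = 0.164).

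**Figure D5:**
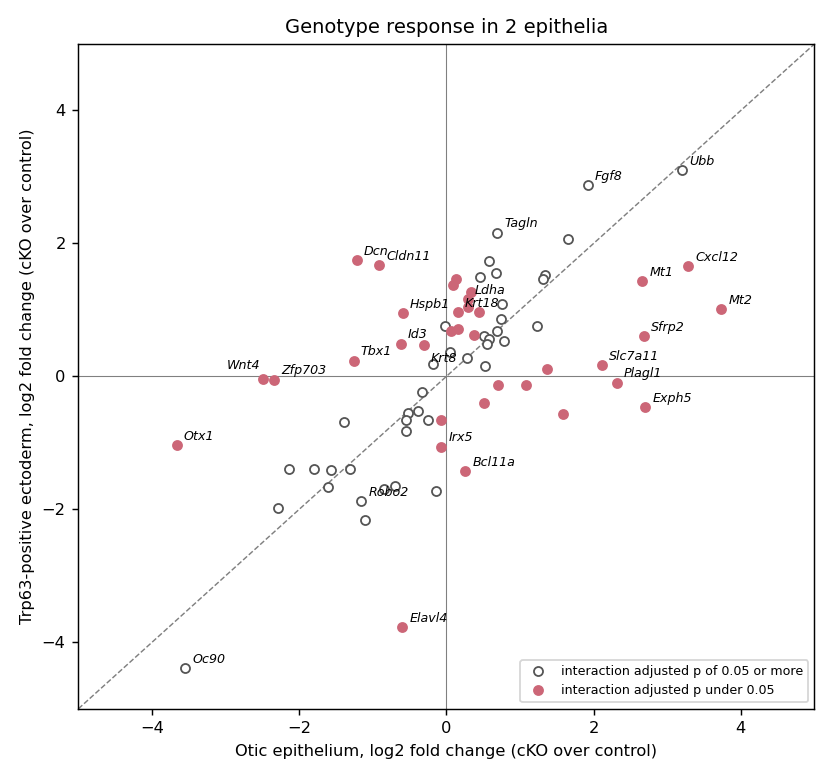
Log2 fold change (cKO over control) of 76 named genes in Trp63-positive ectoderm (vertical) and otic epithelium (horizontal), with filled points for the 35 genes whose difference passed an adjusted p of 0.05 and open points for the other 41. Ubb and Oc90 lie near the dashed line of equal response, Dcn, Cldn11 and Hspb1 above it, and Cxcl12, Mt1 and Mt2 below it.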

How the data were processed

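UMI counts per gene and cell (32285 genes), as deposited by the authors in 4 filtered matrices, were used. Cell Ranger 3.1.0, Seurat 4.1.0 and mm10 are named per the submitters' processing notes, while the matrix headers name Cell Ranger 6.0.1; filters before deposit are not given in the sources used here. Groups came from the sample titles and genotype labels. The members, gene lists and tests were chosen with earlier results of these data known. Member counts were summed per library and tested with edgeR 4.0.16 (filterByExpr, TMM, quasi-likelihood test, Benjamini-Hochberg at 0.05), with the otic comparison as a genotype by class interaction with library as a block. limma 3.58.1 and DESeq2 1.42.0 served as alternatives. Subsets used scanpy 1.11.5 and leidenalg 0.10.2 (1500 variable genes, 20 components, 15 neighbours, resolution 0.5). Leukocytes had no Epcam UMI and at least 3 UMIs of Tyrobp, Fcer1g, C1qb and Ptprc. Doublets were kept; the alternative drops the highest Scrublet scores, 0.8% per 1000 barcodes, because the automatic cut called 0 to 3 cells a library. Named genes were the rule's genes and markers, Tbx2 and Tbx3, the 12 highest and 12 lowest called fold changes with non-overlapping libraries and a mean of at least 20 CPM, called and abundant members of each list, up to 6 genes per direction of the interaction, and subset leaders; other names were chosen after seeing values. On simulated counts, the genotype test called 50 of 50 genes raised 2-fold and 6 of 11292 unchanged genes. The interaction test called 45 of 50 genes raised 2-fold, 47 of 50 lowered to 0.5 of their level and 14 of 11292 unchanged genes. Changed genes were drawn only from those of at least 20 CPM. The simulated spread followed the trend over all genes, with none particular to a gene. The simulation thus does not cover changes in lower genes. Total UMIs per library were 106769747 to 128205192. A few genes are not reported here.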

Additional observations from a re-analysis of the deposited data

Results flagged for a closer look

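Each result here is a genotype response that differed between Trp63-positive ectoderm and otic epithelium of the same libraries by edgeR's quasi-likelihood test of the difference (Benjamini-Hochberg, adjusted p at most 0.05), given as the ectoderm minus the otic log2 fold change. In all, 351 genes differed. Of epithelial genes, the difference was 0.80 for Krt8, 0.83 for Krt18, 0.83 for Krt19, 0.62 for Cldn3, 2.5 for Cldn11, -1.17 for Sfn, 1.53 for Hspb1 and -3.18 for Exph5. Of glycolytic genes, it was 0.55 for Pgk1, 0.92 for Ldha, 0.78 for Aldoa|ENSMUSG00000030695 (the coding gene of that symbol), 0.29 for Eno1 and 0.57 for Pfkl.

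Of signals and their carriers, it was 1.16 for Id3, -1.59 for Cxcl12, 2.43 for Wnt4, -2.04 for Sfrp2, 2.77 for Dcn, -0.77 for Pdgfa and -1.23 for Crabp1. Of transcription factor genes, it was 1.41 for Sox2, -0.54 for Sox11, -0.93 for Irx5, -1.82 for Bcl11a, -0.89 for Tfap2a, -2.31 for Plagl1, -2.14 for Ebf1, 2.34 for Zfp703, 2.63 for Otx1, 3.95 for Gata2 and 1.48 for Tbx1. The metallothionein genes Mt1 and Mt2 differed by -1.21 and -2.68, the transporter gene Slc7a11 by -1.87 and the neuronal gene Elavl4 by -3.18. The difference of Elavl4 did not pass without the highest doublet scores (-1.68, adjusted p = 0.182), and that of Tfap2a did not without control 1 (-0.51, adjusted p = 0.30) or without cKO 1 (-0.61, adjusted p = 0.374). The part of unequal sex and mitochondrial shares in these differences was not tested.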

How the results depend on the processing

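The count of 385 genes called between genotypes (208 higher, 177 lower) was 1050 with no filter on low counts (585 and 465), 596 with a replicate block (319 and 277), 188 with limma-trend on means of scaled cells (81 and 107) and 245 with DESeq2 (77 lower). In cells with Y-linked and no Xist UMIs it was 64 (33 and 31), an alternative chosen after seeing the data, as were members with at most 1 otic marker UMI, members without subsets 4 and 7, and subsets clustered with the called genes. Leaving out 1 library gave 112 to 702 genes (58 to 372 higher, 54 to 330 lower), where the lone library is assumed to vary like the other genotype. Of the 385, 384 passed in the same direction with the replicate block, 370 with RLE scaling, 183 with limma-trend, 101 without cKO 1, 167 without cKO 2, 211 without control 1 and 363 without control 2, and none in the opposite direction. Same-numbered libraries had deviations with r = -0.03 over 5898 genes of at least 20 CPM. The labels name no batch, and with 2 libraries a genotype this value cannot show whether same-numbered libraries share one. Over named genes and alternatives, 796 values kept their direction and side of the threshold, 125 lost the call, 20 gained one and 4 changed sign, none of them past the threshold before or after. These were the log2 values of Slc2a3 (0.16), at -0.20 without control 1 and -0.03 without cKO 1 (up to 0.53 when 1 library was left out), and of Tbx2 (-0.23), at 0.14 without control 2 (down to -0.92 when 1 was left out) and 0.57 in cells with Y-linked and no Xist UMIs. For the comparison with otic epithelium the count of 351 was 547 with no filter, 202 with 1 Trp63 UMI as the threshold and 249 to 623 when 1 library was left out; 294 values of named genes kept their call and 21 lost it. The mean share of members stayed higher in the cKO under each alternative run. With 3 Trp63 UMIs as the threshold, the share of cKO 2 was not above that of control 1. The cause of these changes was not tested, and several alternatives also held fewer cells or libraries. The comparison with pharyngeal pouch cells was not run, because control 2 holds 4 such cells and at least 5 were required. The 44 members of control 2 limit its precision: low genes rest on few UMIs there.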
